A study of Mus musculus with 7 samples.

Results

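Rab GTPases were described in sorted β-cells of 2-week-old mice that lacked Raptor and of their WT littermates. Members were all genes whose symbol in the platform annotation was Rab followed by a number and at most 1 letter. They came to 56 of 19498 named genes, each read by a single transcript cluster, out of 22198 transcript clusters on the Affymetrix Clariom S array. The symbol alone chose them, and no measured value entered. KO arrays 1 to 4 held βRapKO-GFP cells (RIP-Cre, Raptor-/-, Rosa26-GFP), and WT arrays 1 to 3 held littermate cells (RIP-Cre, Raptor+/+, Rosa26-GFP). The labels give the strain as C57BL/6, whereas the methods describe the RIP-Cre line as of mixed background. All mice carried the Cre and the reporter, and by design the groups differed in Raptor. GFP marked any cell in which the rat insulin promoter had once driven Cre, whatever the cell expressed when sorted. Each array held RNA pooled from several animals, so the spread between animals was not seen. The arrays compare mRNA with and without Raptor, the defining subunit of mTORC1, and the Rabs of secretory granules are set beside all others.

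Rabs are small GTPases that mark the identity of membrane compartments. An exchange factor loads a Rab with GTP, the active Rab recruits effectors that move, tether or fuse vesicles, and a GTPase-activating protein ends the cycle. Prenyl groups anchor Rabs in membranes, and GDI proteins return inactive Rabs to the cytosol. In β-cells the Rab3 and Rab27 families and Rab37 act on secretory granules, at docking and release of insulin, whereas other Rabs serve the ER, Golgi, endosomes, lysosomes or cilia.

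The Rab genes lay on 18 chromosomes and were not a gene cluster. Promoter windows in the RefSeq table (GRCm38.p6) were matched by symbol for 47 of the 56 members, which gave 59 windows because some genes have several starts. The 250 bases before the start are shown for the member with the smallest p between KO and WT and for the best known insulin granule Rab. Rab14 lies on the minus strand, with its window at chr2:35201121-35201370. Rab27a lies on the plus strand, with the window shown at chr9:73044560-73044809. Capitals mark the GC box, GGGCGG, or its reverse complement CCGCCC.
Rab14: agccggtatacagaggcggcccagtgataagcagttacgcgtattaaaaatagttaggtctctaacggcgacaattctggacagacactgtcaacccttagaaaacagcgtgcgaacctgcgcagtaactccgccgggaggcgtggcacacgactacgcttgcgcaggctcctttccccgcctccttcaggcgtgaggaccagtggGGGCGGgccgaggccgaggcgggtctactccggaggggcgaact
Rab27a: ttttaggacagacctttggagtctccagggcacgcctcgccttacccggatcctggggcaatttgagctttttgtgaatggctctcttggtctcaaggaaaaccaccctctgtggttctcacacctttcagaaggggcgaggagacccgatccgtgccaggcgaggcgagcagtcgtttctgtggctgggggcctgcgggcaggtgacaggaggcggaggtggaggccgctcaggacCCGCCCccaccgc
The motif began 44 bases before the Rab14 start and 13 bases before the Rab27a start. These windows held 60.0% (Rab14) and 62.0% (Rab27a) G and C. Of the Rab windows, 39 of 59 (66.1%) held a GC box on either strand, against 9062 of 21262 windows (42.6%) over all protein-coding genes. The median G and C content was 60.0% over the Rab windows and 55.6% over all. CCAAT was found in 39.0% of Rab windows and 35.4% of all. The cAMP response core TGACGT was found in 11.9% of Rab windows and 7.37% of all, and the E-box CACGTG in 8.47% of Rab windows and 6.63% of all. TATAAA was found in 6.78% of Rab windows and 11.6% of all. No motif overlapped another in the windows printed. For Rab27a, CCAAT and the E-box were matched only outside the printed window, as windows reaching into a gene were not printed. The matches describe letters only, and the arrays did not measure binding.

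Before the Rabs, the cells and arrays were checked. Rptor was at 5.99, 5.96, 4.40 and 8.54 on the log2 scale in KO arrays 1 to 4 and 5.98, 5.26 and 6.08 in WT arrays 1 to 3. The position of its probes relative to the deleted part is not known here, and this signal thus does not check the genotype labels. Ins2 and Gcg stood at the top value on all 7 arrays. The 9 β-cell markers averaged 13.58 to 14.90 in KO arrays and 14.62 to 14.99 in WT arrays, 6 being lower in KO cells. Of these, 2 (Slc2a2 and Slc30a8) had an unadjusted p below 0.05, where the array as a whole had 1.17% lower. Neither passed after adjustment over the whole array, and the KO and WT arrays of Slc30a8 overlapped. The 5 delta, PP and epsilon markers averaged 14.09 to 15.61 in KO arrays and 13.11 to 14.83 in WT arrays. All 5 had a higher mean in KO cells, but 0 had an unadjusted p below 0.05. Pyy differed by only 0.01 and Ghrl by 0.34 ± 1.30. The 4 alpha markers were at 12.00 to 12.33 in KO arrays and 11.94 to 12.30 in WT arrays. The 20 acinar markers averaged 8.35 to 14.72 in KO arrays and 7.15 to 13.59 in WT arrays. The 3 glial and neuronal markers stood at 5.61 to 6.20 in KO arrays, and at 6.02 to 7.82 in WT arrays with the top on WT array 3. The 6 mesenchymal markers stood at 4.76 to 6.07 in KO arrays, and at 5.05, 5.16 and 6.55 in WT arrays 1 to 3. Of these, Dcn (10.15) and Col1a2 (6.96) were highest on WT array 3. Col1a1, Col3a1 and Acta2 were highest on KO array 4, and Pdgfrb on KO array 3. Ductal, immune and endothelial lists lay at 4.05 to 7.50 in KO arrays and 4.07 to 7.12 in WT arrays. KO arrays 3 and 4 and WT array 3 stood apart, with median correlations with the other arrays of 0.937, 0.924 and 0.933, against 0.954 to 0.961 for the remaining 4. In RNA of pooled cells, fewer cells of a type and less RNA per cell cannot be told apart.

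In the Raptor KO cells no Rab gene passed the test after adjustment over the whole array. Signals are quantile normalized log2 values, a difference is the KO mean minus the WT mean, and p-values are limma's, adjusted over all 22198 transcript clusters by Benjamini-Hochberg. At an adjusted p of 0.05 the count was 0 of 56 Rabs, and 0 of all transcript clusters (0.0%). At an unadjusted p of 0.05, 2 Rabs were lower in KO cells and 0 were higher, where the array as a whole had 1.17% lower and 1.01% higher. The same genes, Rab14 and Rab2b, were the ones whose KO arrays all lay below every WT array after quantile normalization, a pattern held by 1.95% of all transcript clusters. None of the 56 Rabs had every KO array above every WT array, against 1.98% of all transcript clusters. In the other 54 Rabs the KO and WT arrays overlapped.

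The differences of the family were centred near 0. Of the 56 Rabs, 26 (46.4%) were higher and 30 lower in KO cells, with a median of -0.04, whereas 50.2% of all named genes were higher and their median was 0.00. Most members, 45 of 56, stayed within 1.5-fold. A difference past 1.5-fold was reached by 19.6% of Rabs and 14.4% of named genes. The 4 higher ones were Rab12, Rab31, Rab5c and Rab9, and the 7 lower ones were Rab2b, Rab6b, Rab3c, Rab14, Rab39, Rab37 and Rab28. Rab9 and Rab39 are named here after their values were seen.

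**Figure D1:**
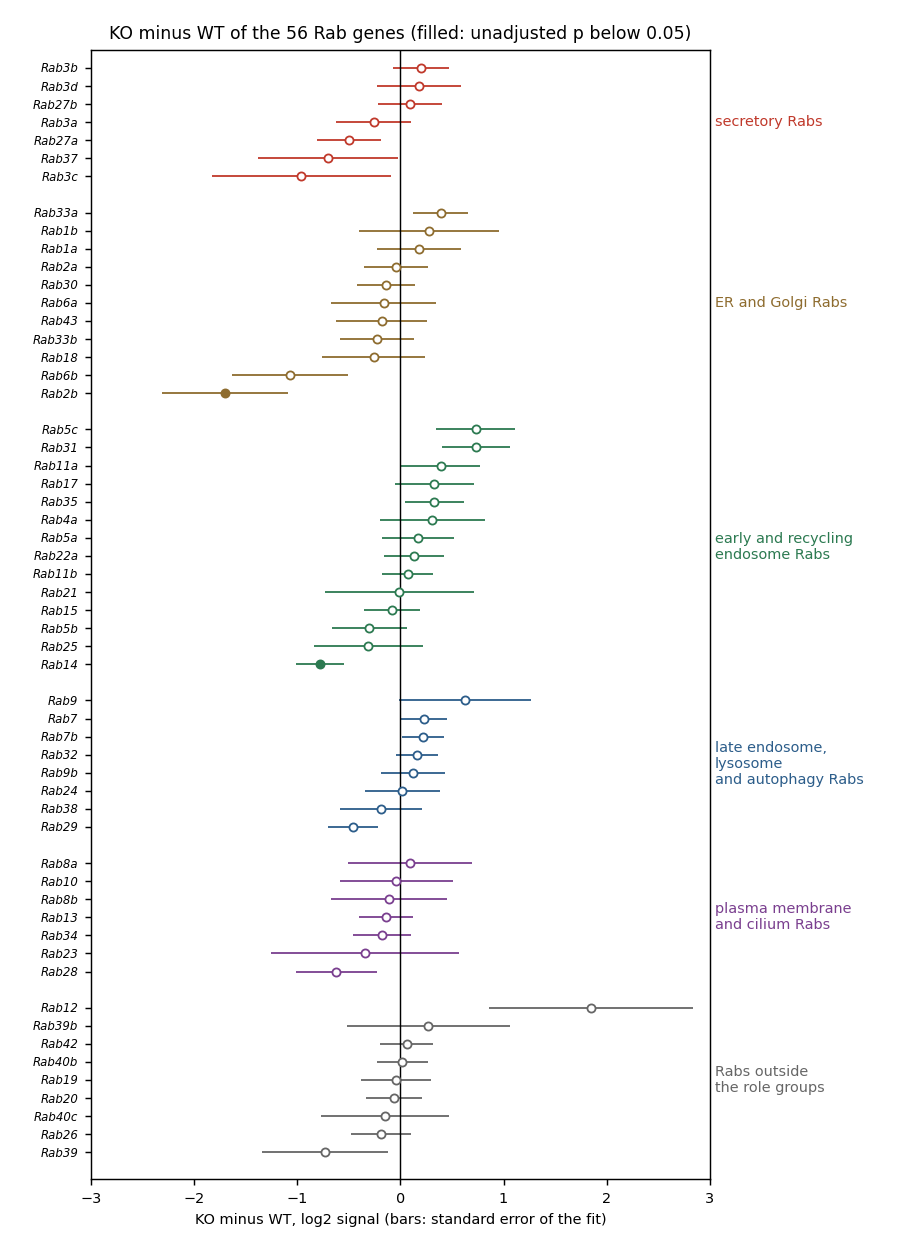
KO minus WT (log2 signal, horizontal axis) of the 56 Rab genes, grouped by the membrane they serve; points are differences of group means, bars are standard errors of the fit and filled points have an unadjusted p below 0.05. Rab2b at -1.70 and Rab14 at -0.78 are the only filled points, and the widest bar belongs to Rab12 at 1.85.

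The secretory Rabs spanned 0 as a group. Of the 7, 3 were higher and 4 lower in KO cells, with a median of -0.26 and a range of -0.96 (Rab3c) to 0.20 (Rab3b). The other 49 had a median of -0.04 and a wider range of -1.70 to 1.85. No secretory Rab reached an unadjusted p of 0.05, the smallest being 0.144, and each had overlapping groups. Per array, the median deviation of the 7 from their means was -0.01, -0.14, -0.56 and 0.16 in KO arrays 1 to 4, against 0.02, -0.22 and 0.53 in WT arrays 1 to 3. The KO and WT ranges overlapped, and without WT array 3 the secretory median difference was 0.04, on the other side of 0.

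Rab27a, which docks insulin granules at the plasma membrane, was at 12.62, 12.30, 11.85 and 12.91 in KO arrays 1 to 4, against 13.04, 12.56 and 13.16 in WT arrays 1 to 3. KO arrays 1 and 4 lay above the lowest WT array, so the groups overlapped. The means were 12.42 ± 0.45 in KO cells (SD, n = 4) and 12.92 ± 0.32 in WT cells (SD, n = 3). The difference was -0.50 ± 0.31 (SE), 1.41-fold lower in KO cells, with a 95% interval of -1.21 to 0.22 (unadjusted p = 0.144). Its direction was the same in all 19 alternatives tried. KO was lower in all 3 pairs of equally numbered arrays, with -0.66 in the fit with the replicate block (unadjusted p = 0.0819). Such agreement also arose against the overall sign. Rab23 and Rab33b were higher in KO in 3 of 3 pairs, at overall differences of -0.34 and -0.23. The share of all transcript clusters with 3 agreeing pairs was not counted. Rab27b, the second Rab27 gene, which is also found in exocrine cells, was at 4.75, 5.16, 4.12 and 4.84 in KO arrays and 4.37, 4.46 and 5.05 in WT arrays. That gave 0.09 ± 0.31, with an interval of -0.63 to 0.81.

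Rab37, another Rab of secretory granules, was at 10.26, 10.27, 7.96 and 8.98 in KO arrays, against 10.43, 10.81 and 8.96 in WT arrays. It was low in KO arrays 3 and 4 and in WT array 3, so the groups overlapped. KO was lower in all 3 pairs of equally numbered arrays, a pattern with the limit given for Rab27a. The difference was -0.70 ± 0.68, with an interval of -2.30 to 0.90. With replicate numbers as a block it was -0.57 (unadjusted p = 0.0878), and it was -1.25 to -0.23 when single arrays were left out.

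The 4 Rab3 genes, whose proteins ride on synaptic vesicles and hormone granules, did not share a direction. Rab3a was at 10.20, 10.05, 11.07 and 10.19 in KO arrays and 10.51, 10.16 and 11.24 in WT arrays, a difference of -0.26 ± 0.36. Rab3b was at 12.62, 12.29, 12.23 and 11.94 in KO arrays and 12.41, 12.19 and 11.61 in WT arrays, a difference of 0.20 ± 0.27. Both pairs of groups overlapped, and array 3 was the highest of its group for Rab3a in KO and in WT cells. Among equally numbered arrays, Rab3a was lower in KO in 3 of 3 pairs and Rab3b higher in 3 of 3. The differences with the replicate block were -0.20 for Rab3a (unadjusted p = 0.421) and 0.31 for Rab3b (unadjusted p = 0.255).

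Rab3c and Rab3d were both highest on WT array 3. Rab3c was at 5.32, 4.96, 4.78 and 6.95 in KO arrays and 5.44, 5.40 and 8.53 in WT arrays, a difference of -0.96 ± 0.87 that became 0.08 without WT array 3. KO was lower in 3 of 3 pairs of equally numbered arrays, and with the replicate block the difference was -1.44 (unadjusted p = 0.122). Rab3d was at 6.21, 6.09, 6.47 and 6.47 in KO arrays and 5.66, 5.55 and 7.18 in WT arrays, a difference of 0.18 ± 0.41. Without WT array 3 all KO arrays lay above the remaining WT arrays, the Rab3d difference was 0.70 and the unadjusted p was 0.0221. WT array 3 also had the highest glial and neuronal level, and the highest mesenchymal level through Dcn and Col1a2. The part of such cells in these values was not tested. All 4 Rab3 genes changed sign in at least 1 of 19 alternatives, and their confidence intervals included 0.

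**Figure D2:**
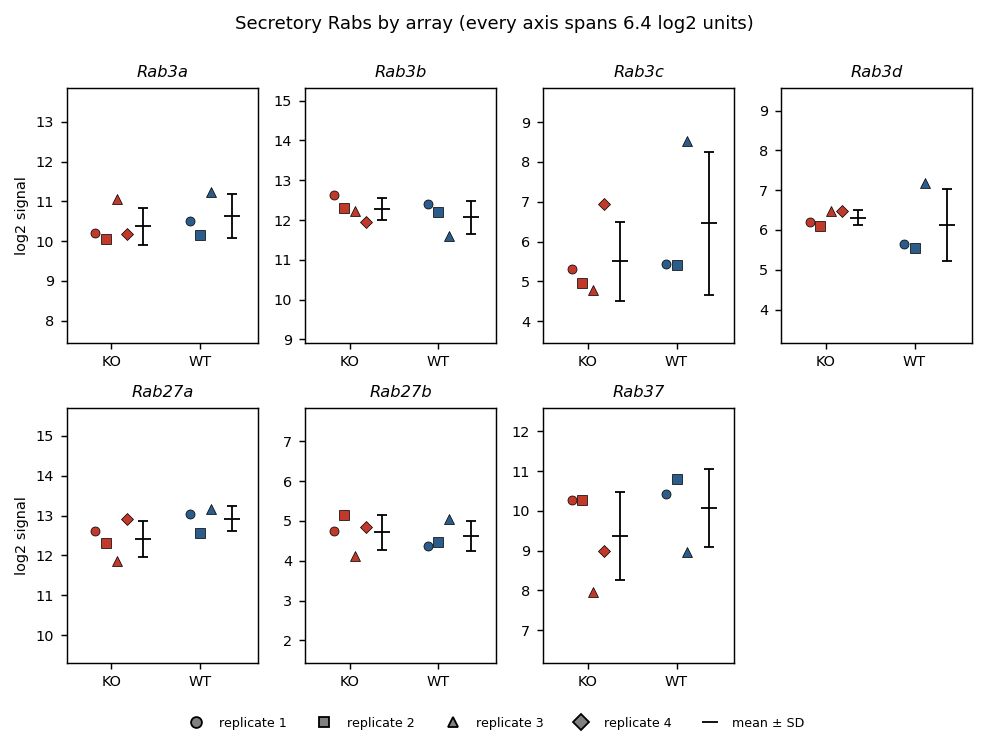
Log2 signal (vertical axis) of the 7 secretory Rabs in KO and WT arrays, with 1 symbol shape per replicate and the mean with SD beside each group. Rab27a shows the lower KO mean (12.42 against 12.92), and WT replicate 3 is the highest point for Rab3c at 8.53 and for Rab3d at 7.18.

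Rab14 gave the smallest p of the family. It works between early endosomes and the trans-Golgi network. The array read it with transcript cluster TC0200003360.mm.2 at 10.88, 11.26, 10.69 and 10.58 in KO arrays 1 to 4, against 11.55, 11.82 and 11.53 in WT arrays 1 to 3. Every KO array was below every WT array, with 11.26 as the highest KO value and 11.53 as the lowest WT value. This held after quantile normalization. As deposited, KO array 2 at 11.41 lay above WT array 3 at 11.33, and with median centring the groups overlapped too. The means were 10.85 ± 0.30 in KO cells (SD, n = 4) and 11.63 ± 0.16 in WT cells (SD, n = 3). The difference was -0.78 ± 0.23 (SE), 1.72-fold lower in KO cells, with a 95% interval of -1.33 to -0.23 (limma, unadjusted p = 0.0114, adjusted p = 1.0). An exact two-sided permutation of the array labels, 35 splits in all, gave p = 0.0571. The difference ranged over -0.92 to -0.61 in the alternatives. It lost the unadjusted threshold with trended and robust variances (unadjusted p = 0.0950) and without the 3 arrays that stood apart (unadjusted p = 0.0680). In the paired fit, where the replicate number was a block, it was -0.69 (unadjusted p = 0.0289).

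Rab2b had the largest difference downward. Rab2 proteins tether vesicles between ER and Golgi. Its transcript cluster, TC1400002031.mm.2, was at 6.03, 5.93, 5.36 and 4.43 in KO arrays, against 6.08, 6.92 and 8.42 in WT arrays. All KO arrays were below all WT arrays, yet KO array 1 at 6.03 and WT array 1 at 6.08 nearly touched. WT array 3 stood high. That array had the highest glial and neuronal level (7.82) and the lowest acinar level (7.15), and it was among the 3 that stood apart. The part of any of these in the Rab2b value was not tested. The difference was -1.70 ± 0.61, 3.25-fold lower in KO cells, with an interval of -3.12 to -0.28 (limma, unadjusted p = 0.0250, adjusted p = 1.0). The exact permutation p was 0.0286, the smallest that 35 splits allow. It was -1.06 without WT array 3 (unadjusted p = 0.0803) and -0.52 without the 3 arrays that stood apart (unadjusted p = 0.183). With replicate numbers as a block it was -1.37 (unadjusted p = 0.0759).

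The sister gene Rab2a had a difference near 0. It was at 14.59, 15.30, 14.04 and 14.77 in KO arrays and 14.61, 14.78 and 14.75 in WT arrays, a difference of -0.04 ± 0.31. Rab2b overlaps the start of its neighbour Tox4, a chromatin gene, by 250 bases in RefSeq. Tox4 was at 9.23, 9.69, 8.72 and 10.03 in KO arrays and 9.80, 9.50 and 7.10 in WT arrays, a difference of 0.62 ± 0.67. Whether the shared stretch entered either probe set was not tested.

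Among the 11 ER and Golgi Rabs, with Rab2a and Rab2b included, 3 were higher and 8 lower in KO cells, and the median was -0.16. Only Rab2b had an unadjusted p below 0.05. Rab6b, a Rab6 form known from neurons that acts in Golgi traffic, was at 6.16, 6.24, 5.43 and 4.85 in KO arrays and 6.13, 6.08 and 8.02 in WT arrays. WT array 3 was again the high one. The difference was -1.07 ± 0.56 (unadjusted p = 0.0963), and it was 0.09 without the 3 arrays that stood apart. Rab6a differed by -0.16 ± 0.51. Rab33b, which binds the autophagy protein ATG16L1, was at 8.91, 8.70, 8.84 and 7.53 in KO arrays and 8.75, 8.64 and 8.77 in WT arrays. KO array 4 alone lay apart, and the difference of -0.23 ± 0.36 was 0.09 without it. Rab33a was higher in KO cells by 0.39 ± 0.27, with overlapping groups.

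Of the 14 early and recycling endosome Rabs, 9 were higher and 5 lower in KO cells, with a median of 0.15. Rab14 was the single one with an unadjusted p below 0.05, and it was lower. Rab31, which carries cargo from the trans-Golgi network to endosomes, was at 5.38, 6.28, 5.62 and 6.49 in KO arrays and 5.38, 4.86 and 5.40 in WT arrays. Only KO array 1 fell within the WT range, and the difference was 0.73 ± 0.33 (unadjusted p = 0.0608). It was 0.91 without KO array 1 (unadjusted p = 0.0265) and 0.79 with array weights (unadjusted p = 0.0320), but 0.55 without WT array 2 (unadjusted p = 0.194) and 0.55 with replicate numbers as a block (unadjusted p = 0.189).

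Rab5c, 1 of 3 Rab5 genes that drive early endosome fusion, was at 9.73, 8.49, 8.83 and 8.47 in KO arrays and 8.47, 8.35 and 7.62 in WT arrays. KO array 4 and WT array 1 met at 8.47, and the difference was 0.73 ± 0.38 (unadjusted p = 0.0934). With replicate numbers as a block it was 0.86 (unadjusted p = 0.0438), but it was 0.45 without KO array 1 (unadjusted p = 0.189) and 0.46 without WT array 3 (unadjusted p = 0.289). Rab5a was at 0.17 ± 0.35 and Rab5b at -0.30 ± 0.36 on the same scale of differences, so the 3 genes did not share a sign, and each interval included 0.

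Late endosome, lysosome and autophagy Rabs were higher in 6 of 8 cases, with a median of 0.14. Their median SD within KO and WT groups was 0.34, the smallest of the role groups, against 0.51 over all Rabs. Rab32, Rab29, Rab7b and Rab38 lay below the median signal of the array, and the part of dim signal in this SD was not tested. Rab7, the main late endosome Rab, was at 17.08, 16.66, 16.80 and 16.76 in KO arrays and 16.73, 16.75 and 16.30 in WT arrays, a difference of 0.23 ± 0.22. Its relative Rab7b differed by 0.22 ± 0.20. Rab29, a partner of the kinase LRRK2 at lysosomes, went the other way.

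Rab29 was at 3.70, 4.19, 3.74 and 3.42 in KO arrays and 4.37, 4.14 and 4.16 in WT arrays. KO array 2 alone overlapped the WT range. The difference was -0.46 ± 0.24 (unadjusted p = 0.0882), and -0.61 without KO array 2 (unadjusted p = 0.0329). It was -0.35 with replicate numbers as a block (unadjusted p = 0.233) and -0.31 without the 3 arrays that stood apart (unadjusted p = 0.317). The signal lay below the 25th percentile of the array, 4.48. Below that limit lay 7 Rabs, 0 of them secretory, and below the median lay 16, with 1 secretory Rab.

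Plasma membrane and cilium Rabs were lower in 6 of 7 cases, with a median of -0.14, where 50.2% of all named genes were higher. The smallest unadjusted p was 0.152, and every interval included 0. Rab28, a Rab of cilia, was at 9.05, 8.73, 8.42 and 7.53 in KO arrays and 8.64, 9.29 and 9.22 in WT arrays, a difference of -0.62 ± 0.39 (unadjusted p = 0.152). It was -0.32 without KO array 4 (unadjusted p = 0.309), -0.31 with the replicate block (unadjusted p = 0.374) and -0.07 without the 3 arrays that stood apart (unadjusted p = 0.828). Rab23, a brake on Hedgehog signalling, was at 8.40, 8.13, 8.64 and 4.78 in KO arrays and 8.24, 7.99 and 7.25 in WT arrays. Its difference of -0.34 ± 0.91 rested on KO array 4 and was 0.56 without it. Rab34, which acts in cilium assembly, differed by -0.18 ± 0.28.

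The largest difference upward was that of Rab12, which directs receptors from recycling endosomes to lysosomes and stands outside the role groups. It was at 7.69, 8.91, 8.85 and 11.36 in KO arrays and 8.31, 8.23 and 5.50 in WT arrays. The groups overlapped at KO array 1, and KO array 4 and WT array 3 were the extremes. The difference was 1.85 ± 0.99 (unadjusted p = 0.10), and it was 0.03 without the 3 arrays that stood apart. The acinar marker level was likewise highest on KO array 4 (14.72) and lowest on WT array 3 (7.15), and with that level as a covariate the difference was 1.59 (unadjusted p = 0.0264). The 9 Rabs outside the role groups had 4 higher and 5 lower genes, with a median of -0.04.

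**Figure D3:**
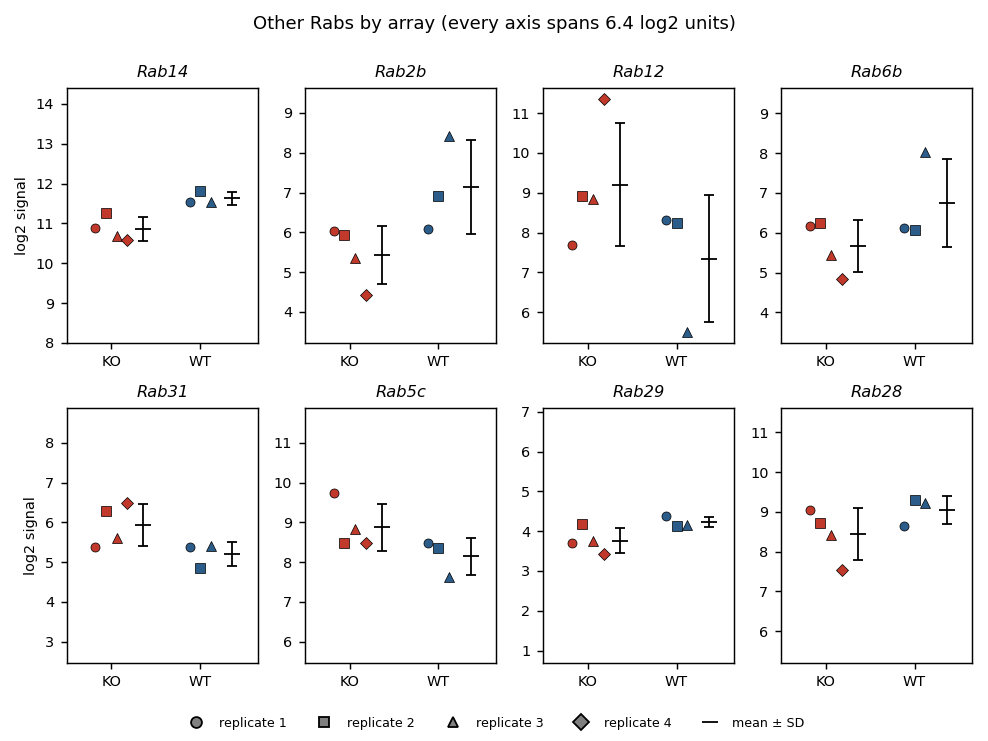
Log2 signal (vertical axis) in KO and WT arrays of Rab14, Rab2b and 6 other Rabs outside the secretory group, with 1 symbol shape per replicate and the mean with SD beside each group. The KO points of Rab14 lie at 10.58 to 11.26, all below its WT points at 11.53 to 11.82, whereas the extreme points of Rab12 and Rab6b are KO replicate 4 and WT replicate 3.

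Within subfamilies, 20 pairs of closely named genes were compared, and 11 had differences of opposite sign. Rab2a and Rab2b differed by -0.04 and -1.70, and Rab27a and Rab27b by -0.50 and 0.09. Rab27b was dim, with a mean signal at the 30.0th percentile of the array. The Rab3 and Rab5 genes each entered several pairs, and no such share was taken over pairs of other genes. These are descriptions with no test, and the count is no result about the subfamilies.

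Many of the extreme Rab values lay on KO array 4 and WT array 3. On KO array 4 the root mean square deviation of the Rabs from their means was 0.92 and on WT array 3 it was 0.91, against 0.82 and 0.77 over all named genes. KO array 4 held the highest value of 12 Rabs and the lowest of 15, and WT array 3 held the highest of 13 and the lowest of 11. Without the 3 arrays, 1 Rab had an unadjusted p below 0.05, against 2.22% of all transcript clusters. It was Rab8a, which was higher in KO cells and is named after its value was seen. Neither Rab14 nor Rab2b reached that limit.

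**Figure D4:**
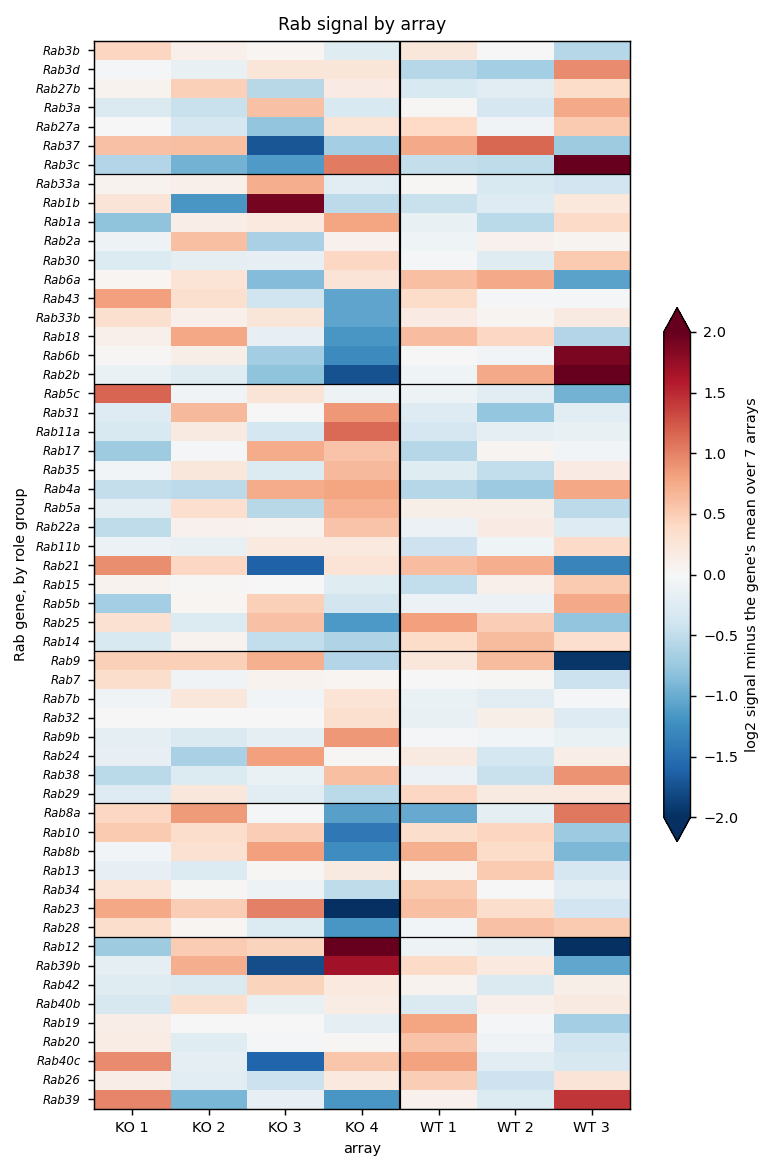
Log2 signal of each Rab gene (rows, by role group in the order secretory, ER and Golgi, early and recycling endosome, late endosome and lysosome, plasma membrane and cilium, others) minus its mean over the 7 arrays; columns are KO and WT arrays, red is above and blue below the mean, and colours stop at 2 units. KO array 4 holds the highest value of 12 Rabs and the lowest of 15, and WT array 3 the highest of 13 and the lowest of 11.

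The proteins that switch, anchor and read Rabs likewise did not pass the adjusted threshold. In the list of effectors of the secretory Rabs, which also holds vesicle priming factors, 8 of 15 were higher and 7 lower in KO cells. The median was 0.01. At an unadjusted p of 0.05, 1 of the 15 was higher, where the array as a whole had 1.01% higher. That was Unc13a, listed as a priming factor. It was at 8.06, 8.73, 8.46 and 7.94 in KO arrays and 7.96, 7.55 and 7.23 in WT arrays, a difference of 0.72 ± 0.29 (limma, unadjusted p = 0.0379, adjusted p = 1.0). KO array 4 lay just below WT array 1.

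Sytl4, which encodes granuphilin, the Rab27a effector on insulin granules, had the lowest difference of that list. It was at 11.42, 10.67, 12.75 and 8.90 in KO arrays and 12.37, 11.53 and 12.22 in WT arrays, giving -1.11 ± 0.81 (unadjusted p = 0.213). KO arrays 3 and 4 held both the highest and the lowest value. Sytl4 and Rph3al (Noc2, an effector of Rab3 and Rab27, at -0.93 ± 0.62) are named after their values were seen.

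Exchange factors were higher in 12 of 20 measured genes, with a median of 0.04. Past 1.5-fold were 8 of the 20 (40.0%), 4 in each direction, against 14.4% of all named genes. Their median SD within groups was 0.71, against 0.44 over all named genes. Gapvd1, an activator of Rab5, differed by 1.17 ± 0.59 (unadjusted p = 0.0836) and Dennd4c, an activator of Rab10, by -0.69 ± 0.40 (unadjusted p = 0.124). GTPase-activating proteins were higher in 9 and lower in 16 of 25, with a median of -0.18. There Tbc1d13 differed by -0.69 ± 0.32 (unadjusted p = 0.0661) and Tbc1d9 by 0.77 ± 0.38 (unadjusted p = 0.0816). None of the genes in these lists had an unadjusted p below 0.05.

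Genes for prenylation and recycling of Rabs were higher in 4 and lower in 7 of 11, with a median of -0.04. Chm, which encodes the escort protein that presents Rabs for prenylation, differed by -0.94 ± 0.63 (unadjusted p = 0.179) and Yipf5, a Golgi membrane protein, by -0.49 ± 0.31 (unadjusted p = 0.147). Effectors of endosomal and Golgi Rabs were even, 10 higher and 10 lower of 20, with a median of 0.00. Micall1, an effector on recycling tubules, differed by 0.77 ± 0.39 (unadjusted p = 0.0834) and Ehbp1, an effector of Rab8 and Rab10, by 0.65 ± 0.39 (unadjusted p = 0.139).

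**Figure D5:**
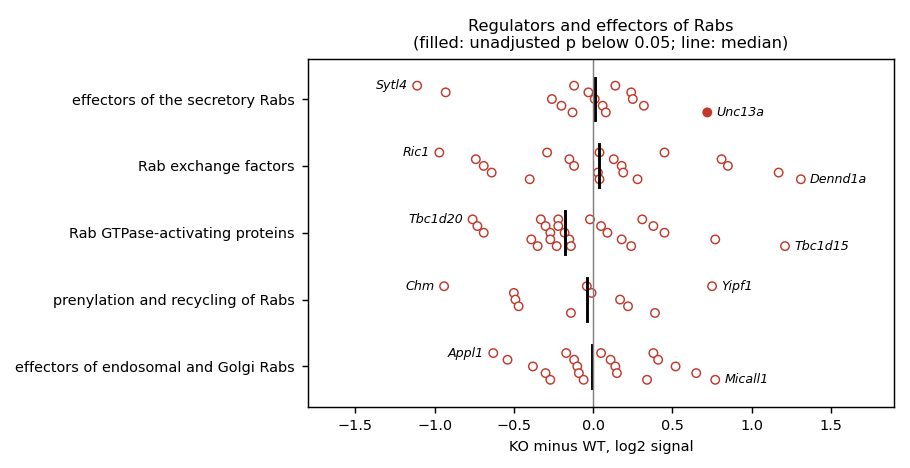
KO minus WT (log2 signal, horizontal axis) of the measured genes in 5 lists of Rab regulators and effectors; each point is a gene, the black line is the list's median, and the lowest and highest gene of each list are named. Medians lie between -0.18 and 0.04, and Unc13a at 0.72 is the single filled point (unadjusted p below 0.05).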

How the data were processed

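Per the labels, RNA of sorted β-cells was hybridised to 7 arrays, 4 KO and 3 WT. The authors deposited log2 values, 1 per transcript cluster and array, from 2.24 to 19.93. Affymetrix Expression Console and MAS5 stand in the submitters' processing notes and GeneSpring in the study's methods. Which of them gave these values, the background correction and which of the listed amplification kits was used are not given in the sources used here. Detection calls were not used. The labels do not number animals, so p-values measure the spread between pools, and the number of arrays limits the precision.

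Array medians differed by more than 0.1, so values were quantile normalized. The 22198 transcript clusters were fitted together in R 4.3.3 by lmFit and eBayes of limma 3.58.1, two-sided and without covariates, and p-values were adjusted over all of them after Benjamini-Hochberg. Each error after ± is the SE of the fit unless SD is given, and intervals are 95%. Single genes were also tested by an exact permutation over the 35 splits of 7 arrays. A symbol was named for 19565 transcript clusters and 2633 were unnamed. Of 59 Rab symbols in RefSeq, 56 were read here. The fit was tested on simulated data. A deviation is a value minus its gene's mean over the 7 arrays, and a cell type level is the mean log2 signal of its markers. The Rabs, role groups, regulator lists and tests were chosen with earlier results of these data known. Rabs named were the 7 secretory ones, those with an unadjusted p below 0.05 or no overlap, the 4 largest other differences, the 3 largest SDs within groups, and up to 2 more per role group by p; regulators were named by p within lists.

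Titles of KO and WT arrays both run through the numbers 1 to 3. Deviations of equally numbered arrays from their group means correlated at 0.160, 0.243 and 0.165, and those of unequally numbered ones at -0.181 to 0.0233, so the numbers were taken as pairs and a fit with the replicate block was an alternative, in which KO replicate 4 does not enter the contrast. Other alternatives were no normalization, median centring, cyclic loess, filters on dim transcript clusters, trended and robust variances, array weights, the methods' t-test, the acinar level as covariate, and leaving arrays out.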

Additional observations from a re-analysis of the deposited data

Results flagged for a closer look

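In 3 of 20 Rabs tested, a single KO array stood so far from the other 3 that its gap took up most of the group's range, past Dixon's 95% limit for 4 values. Chance flags about 1 in 20 unselected groups, but Rab23 was among those named for their large SD within groups. The gap was 0.869 of the range for Rab23 and 0.852 for Rab33b, both from a low value on KO array 4 (4.78 for Rab23, 7.53 for Rab33b). It was 0.854 for Rab3a, from a high value of 11.07 on KO array 3.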

How the results depend on the processing

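No Rab reached an adjusted p of 0.05 under any setting run, the lowest adjusted p of a named Rab being 0.933. Over all transcript clusters limma also gave 0 at that limit, with 484 at an unadjusted p of 0.05, and the methods' t-test gave 0 with 534. The count of 2 Rabs at an unadjusted p of 0.05 was 1 with trended and robust variances, 1 by the methods' t-test and 1 without the 3 arrays that stood apart (a choice made after seeing the data). It was 6 at a threshold of 0.1, and 1 to 3 when single arrays were left out. It was again 2 in the paired fit with the replicate block (Rab14 and Rab5c), with array weights (Rab14 and Rab31) and without WT array 3 (Rab14 and Rab3d), and 3 with the acinar covariate (Rab12 added). Over all transcript clusters the share at an unadjusted p of 0.05 was 2.18% in the main fit. Without single arrays the share was 1.35% to 3.14%, and in the other settings just named 2.22% to 2.69%. No such share was taken at a threshold of 0.1. Rab2b lost the threshold in 7 of 19 alternatives and Rab14 in 2. The 2 Rabs without overlap were Rab2b and Rab29, not Rab14, as deposited, and became 1 (Rab2b) with median centring. The count was 18 without the 3 arrays (fewer arrays overlap less) and 2 to 7 without single arrays. The share of all transcript clusters without overlap was not counted in these settings, so these counts are no result about the Rabs. Settings that leave the arrays' values as they are give no separate overlap. The secretory median ran from -0.33 to 0.04 without single arrays, and 0.04 was reached without WT array 3. It was -0.50 without Rab3d and Rab27b and -0.38 without transcript clusters below the median signal. The median of the other Rabs was 0.02 with cyclic loess, 0.02 without transcript clusters below the median signal, and -0.09 to 0.11 without single arrays.

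Signs turned with the replicate block for Rab23 (0.56) and Rab33b (0.09), and without the 3 arrays for Rab6b (0.09), Rab23 (0.15) and Rab33b (0.11). Without single arrays the range of differences was -0.50 to 0.04 for Rab3a, -0.03 to 0.37 for Rab3b, -1.49 to 0.08 for Rab3c, -0.11 to 0.70 for Rab3d, -0.06 to 0.30 for Rab27b, -0.72 to 0.56 for Rab23, -0.37 to 0.09 for Rab33b and -0.34 to 0.02 for Rab34. The causes were not tested.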
